A study of Mus musculus with 20 samples.

Results

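The genes described here are 47 genes of the cell cycle, taken by name from the array design, out of 27670 genes with at least 1 probe. All 47 were on the array and all 47 were tested. They were split by what their proteins do into 14 genes of DNA replication, 4 regulators of the step from G1 into S phase, and 29 genes of mitosis and of the approach to it. RNA came from dissociated mouse hippocampal neurons on day 21 in culture, treated for 24 h, and 5 arrays were made per group. The groups received vehicle (control), 100 µM AP5, 100 nM NVP or 1 µM Ro25. AP5 is a competitive antagonist of the NMDA receptor, the glutamate receptor that passes calcium when neurons are active. NVP, which the labels call NVP-AAM077, is another antagonist of that receptor, and Ro25 is a compound the labels give by a code name. Each array set one sample, labelled with Cy5, against a universal mouse reference RNA, labelled with Cy3. Whether each array stands for its own culture is not stated in the labels, so a p-value here measures spread among arrays that may be partly technical. The title of the series asks how NMDA receptor activity in neurons acts on the division of astrocytes through the induction of Ptgs2.

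Dividing cells copy their DNA in S phase and separate the copies in mitosis. Cyclins switch on their kinases in turn: D and E cyclins at the entry to S phase, cyclin A during it, and B cyclins at mitosis. Before S phase, Cdt1 and Cdc6 load the Mcm helicase onto DNA, and geminin (Gmnn) later blocks Cdt1 so that DNA is copied once. In mitosis the Aurora and Polo kinases build the spindle, the checkpoint proteins wait for every chromosome to attach, and the anaphase-promoting complex then destroys the B cyclins. Neurons have left the cell cycle, while astrocytes, oligodendrocyte precursors and microglia can divide in culture.

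Replication genes are known to be driven by E2F factors, and many mitosis genes through a CHR element with CCAAT boxes nearby. The promoters shown are those of the 2 replication genes and the 4 mitosis genes with the lowest p-values between AP5 and control. They come from RefSeq (GRCm38.p6), from 250 bases before the start site to 50 after it, 5′ to 3′ on the gene's strand. Capitals mark matches to the motifs searched on both strands: E2F (TTTCCCGC, TTTCGCGC, TTTGCCGC or TTTGGCGC), CHR (TTTGAA or TTCGAA) and the CCAAT box (CCAAT). Cdt1 lies at chr8:122567765-122568064 on the plus strand, Mcm2 at chr6:88898731-88899030 on the minus strand, Ube2c at chr2:164769679-164769978, Mad2l1 at chr6:66534971-66535270 and Plk1 at chr7:122159185-122159484, the last 3 on the plus strand. Ccna2 is named only.
Cdt1: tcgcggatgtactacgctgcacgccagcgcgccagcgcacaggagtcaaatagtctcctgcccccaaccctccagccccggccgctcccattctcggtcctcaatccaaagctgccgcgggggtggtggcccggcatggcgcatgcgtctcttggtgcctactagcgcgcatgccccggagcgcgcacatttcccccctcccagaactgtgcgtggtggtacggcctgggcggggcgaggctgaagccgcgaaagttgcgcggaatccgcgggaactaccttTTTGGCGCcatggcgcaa
Mcm2: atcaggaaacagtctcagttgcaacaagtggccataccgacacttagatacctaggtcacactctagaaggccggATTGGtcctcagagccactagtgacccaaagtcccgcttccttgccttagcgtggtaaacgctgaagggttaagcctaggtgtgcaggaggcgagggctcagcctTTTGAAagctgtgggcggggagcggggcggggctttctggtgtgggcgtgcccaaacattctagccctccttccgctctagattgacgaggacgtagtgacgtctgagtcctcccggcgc
Ube2c: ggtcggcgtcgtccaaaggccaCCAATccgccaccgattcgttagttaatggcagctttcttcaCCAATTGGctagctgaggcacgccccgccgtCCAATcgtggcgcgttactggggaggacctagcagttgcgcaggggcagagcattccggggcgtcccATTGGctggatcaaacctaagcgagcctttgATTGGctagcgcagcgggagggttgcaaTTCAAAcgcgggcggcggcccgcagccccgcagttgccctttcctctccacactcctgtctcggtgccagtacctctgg
Mad2l1: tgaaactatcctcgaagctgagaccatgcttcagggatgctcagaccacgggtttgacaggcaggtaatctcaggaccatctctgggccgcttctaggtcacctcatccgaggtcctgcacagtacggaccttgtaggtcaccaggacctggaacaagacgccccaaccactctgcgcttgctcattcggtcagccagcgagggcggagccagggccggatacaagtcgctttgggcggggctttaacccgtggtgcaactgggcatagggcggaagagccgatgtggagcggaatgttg
Plk1: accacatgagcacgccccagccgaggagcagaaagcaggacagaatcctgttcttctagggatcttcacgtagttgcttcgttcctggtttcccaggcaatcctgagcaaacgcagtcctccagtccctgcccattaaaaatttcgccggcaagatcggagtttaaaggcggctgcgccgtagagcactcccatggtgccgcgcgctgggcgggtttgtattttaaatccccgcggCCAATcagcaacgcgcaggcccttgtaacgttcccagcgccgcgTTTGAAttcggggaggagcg

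Cdt1 held 1 E2F match, starting 33 bases after the start site, and neither of the other motifs. Ube2c held 1 CHR match, 29 bases before the start, and 6 CCAAT matches, a pair of which overlap. Plk1 held 1 CHR match, 31 bases after the start, with 1 CCAAT match 14 bases before the start. Mcm2 held 1 CHR match 70 bases before the start and 1 CCAAT match 175 bases before it. Mad2l1 held none of the 3 motifs, which says only that these letters are not in the window. Of the 47 genes, 38 had a promoter in the table. An E2F match stood in 6 of 12 replication promoters and 1 of 24 mitosis promoters, against 2.32% of 27025 promoters of the same length. A CHR match stood in 2 of 12 replication promoters and 16 of 24 mitosis promoters, against 19.4% of all, and each of those 16 also held a CCAAT match, against 7.7% of all promoters with both. These are counts of letters and not of binding sites.

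Against the reference RNA, 45 of the 47 genes were below a ratio of 1 in the control arrays. The control log2 ratios ran from −3.56 for Mki67 to 0.46 for Ccnd1, with a median of −2.41. Ccnd1 and Ccne1, the cyclins of G1 and of the entry to S phase, were the 2 genes above the reference. A ratio sets a gene against the same gene in the reference, so ratios of different genes do not rank their levels. The red channel was well above background on all 20 arrays for 46 genes. Hmmr, a spindle-associated hyaluronan receptor, was above it on 2 control, 0 AP5, 3 NVP and 2 Ro25 arrays, so its AP5 values are not measured levels.

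Markers of several cell types were measured. All 10 neuron markers were above background on every array, with mean log2 ratios of 4.12 to 5.01 over the arrays, and so were all 15 astrocyte markers, with means of 2.63 to 3.93. The 7 markers of oligodendrocyte precursors had means of 1.95 to 2.89. Ptgs2, the prostaglandin synthase named in the title, checks the treatment: its log2 ratios were −1.36, −1.22, −0.97, −1.17 and −0.73 in control and −2.34, −2.53, −2.41, −2.58 and −2.22 with AP5. The groups did not overlap, and the log2 difference was −1.32 (SE 0.11, limma adjusted p = 1.14e-07, n = 5 and 5). With slide as a fixed block it was −1.35 and did not pass (adjusted p = 0.0866). Ptgs2 differed by −0.40 with NVP (adjusted p = 0.484) and by −0.61 with Ro25 (adjusted p = 0.0717), neither past the threshold.

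**Figure D1:**
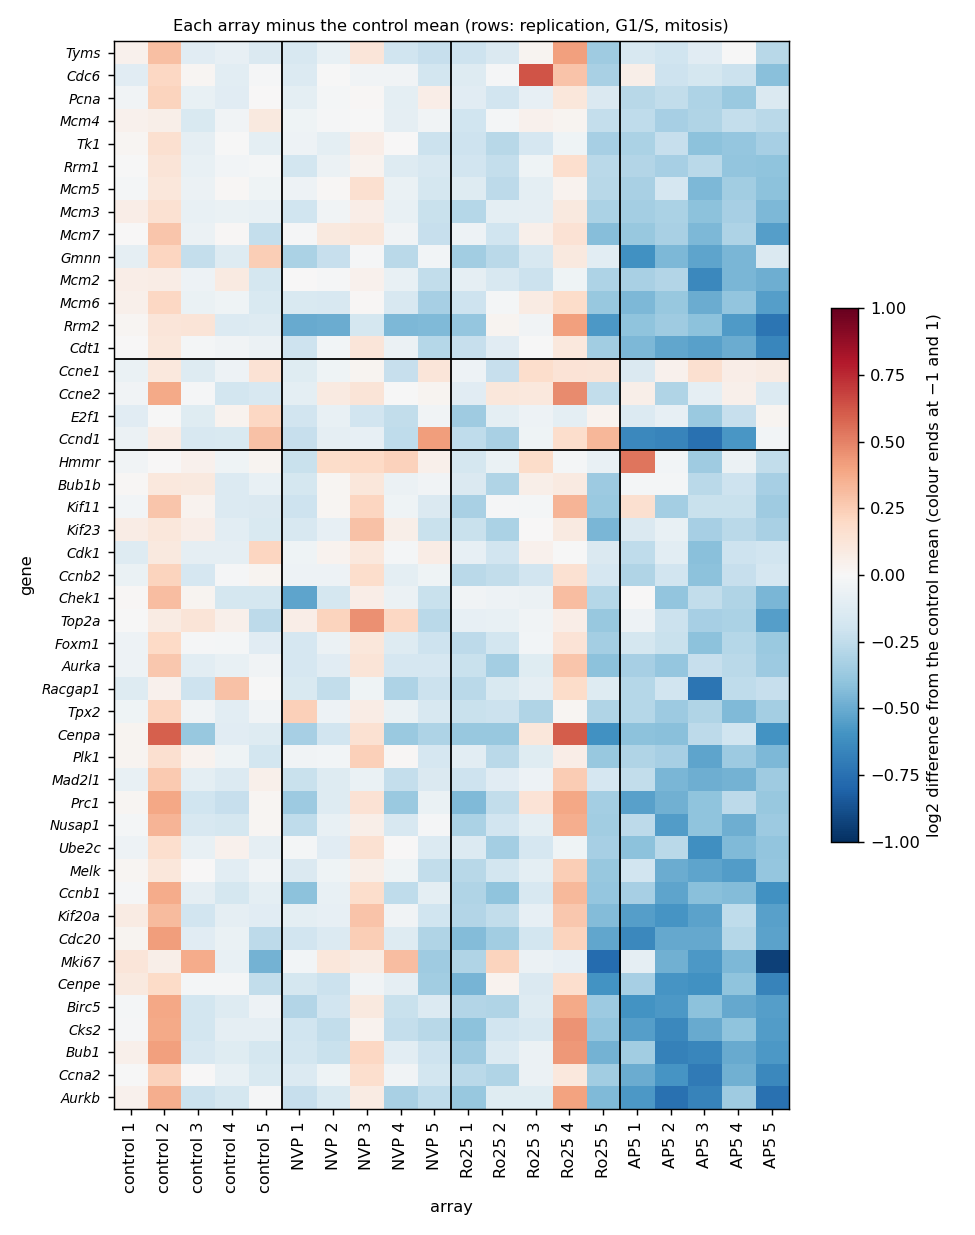
Rows are the 47 genes and columns the 20 arrays. Colour gives the log2 ratio of an array minus the mean of the 5 control arrays for that gene, with red above and blue below. The AP5 columns are blue in nearly every row, while control 2, NVP 3 and Ro25 4 are red in most rows and Ro25 5 is blue in most.

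Several arrays stood apart from their group over the whole list. Control 2 was the highest of the control arrays for 35 of 47 genes, NVP 3 the highest NVP array for 39 and Ro25 4 the highest Ro25 array for 39. Ro25 5 was the lowest Ro25 array for 33. Over all 47 genes, the mean of an AP5 array lay 0.29 to 0.42 log2 units below the control mean, on each of the 5 arrays. The control arrays lay from −0.07 to 0.21 around their own mean, NVP arrays from −0.16 to 0.09 and Ro25 arrays from −0.32 to 0.19. So the AP5 means did not overlap with control or NVP, and 1 Ro25 array reached into the AP5 range. The median SD of a gene over 5 arrays was 0.115 with AP5, 0.147 in control, 0.135 with NVP and 0.214 with Ro25.

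With AP5, cell cycle genes were lower than in control. Of the 47, 28 fell past the threshold (limma, Benjamini-Hochberg adjusted p under 0.05 over 19350 genes), 0 rose and 19 did not pass. In the same comparison 3.59% of all genes tested were called lower and 2.53% higher. The falls were small: the 28 called genes were 1.21-fold to 1.53-fold lower, with a median of 1.35-fold. The median log2 difference over the 47 genes was −0.38, against −0.01 over all genes tested. The difference was below 0 for 46 of 47 genes, against 53.5% of all genes, and for 29 all 5 AP5 arrays lay below all 5 control arrays, against 3.91% of all genes. Hmmr, not above background with AP5, stays in this and the other counts and medians over the list. A filter of at least 10 arrays above background leaves it out. Then 45 of 46 genes were below 0 (median −0.39) and 28 were called, against 3.84% of all genes called lower. By class, 12 of 14 replication genes fell (median −0.35), 15 of 29 mitosis genes (median −0.40) and 1 of 4 G1/S regulators (median −0.12). In bulk RNA, fewer dividing cells and less of these transcripts per cell cannot be told apart.

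The count depended on how slides were treated, on the scaling and on 1 array. AP5 and control arrays never shared a slide. AP5 2, 3 and 4 lay on slides that held only AP5 arrays, and control 1, 2, 4 and 5 on a slide of control arrays only. A fixed slide block takes up those arrays, so in that fit an AP5 against control difference rests on AP5 1, AP5 5 and control 3. With slide as a fixed block, which compares them through the other groups, 0 of 47 genes passed (0.181% of all genes were lower) and the median was −0.30. With slide as a random block 29 passed (4.03% of all genes). The slide correlation estimated for that fit was −0.04, so it hardly adjusts for slide. Without control 2 the count was 17 (2.86% of all genes) and the median −0.33. Among the 17 arrays scanned on the first day it was 17 (2.38% of all genes) with a median of −0.37. With each array centred on its median in place of loess, 0 of 47 passed, and 0.512% of all genes were lower. The median over the list was then −0.27 and that over all genes 0.06.

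**Figure D2:**
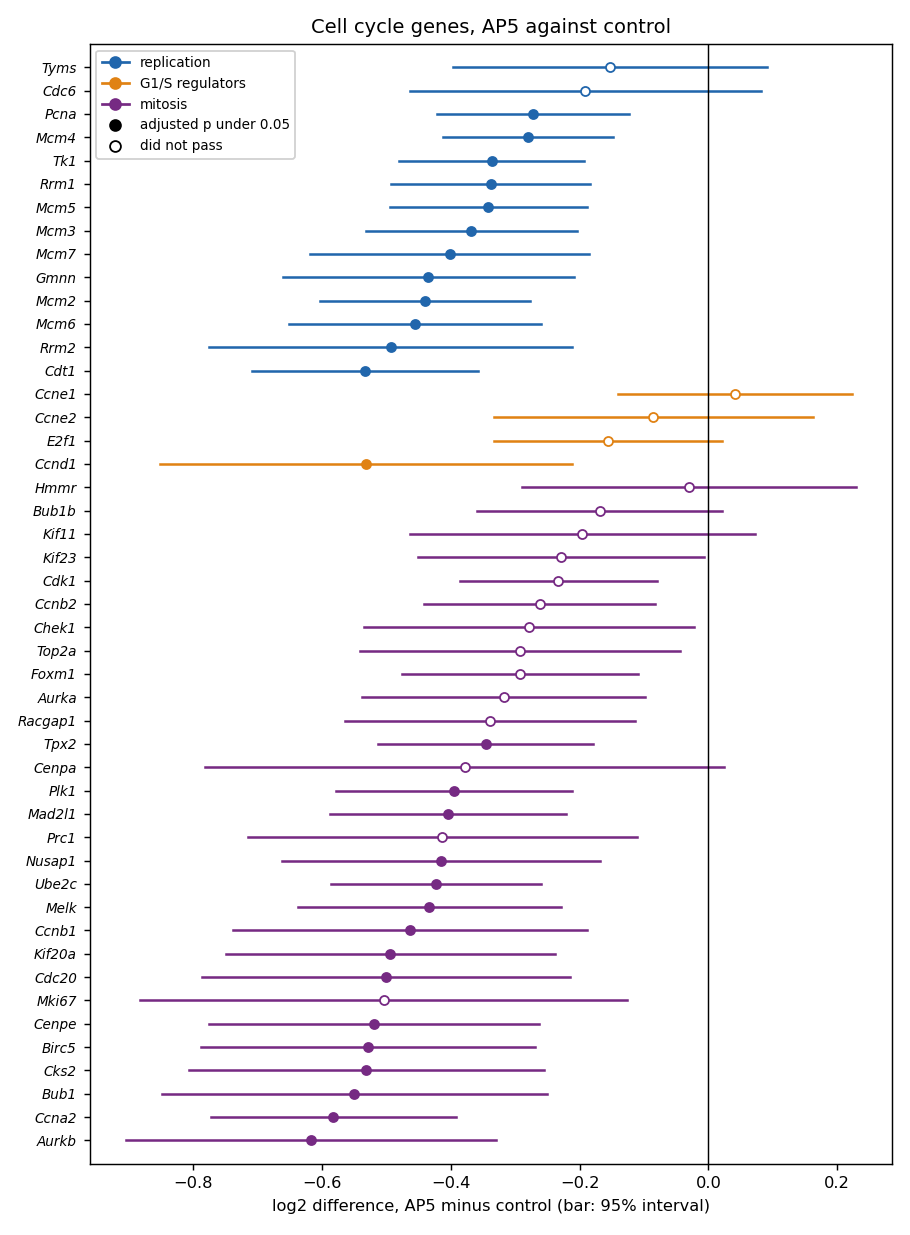
Each row is 1 gene, and the x axis is its log2 difference, AP5 minus control, with the 95% interval from limma (n = 5 and 5). Filled points passed the adjusted threshold. Intervals of 12 replication genes, 1 G1/S regulator and 15 mitosis genes belong to filled points, and only Ccne1 has its point to the right of 0; the point of Hmmr rests on signals not above background with AP5.

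Of the licensing and helicase genes 8 of 9 fell (median −0.40), all 6 Mcm genes among them. Cdt1, which loads the helicase and is destroyed once S phase begins, read −3.29, −3.18, −3.32, −3.33 and −3.36 in control and −3.75, −3.82, −3.84, −3.80 and −3.95 with AP5 (log2 ratios, arrays 1 to 5). Every AP5 array lay below every control array, and the gap between the groups was wider than the range within either. The difference was −0.53 (SE 0.08, limma adjusted p = 0.000415). Mcm2, a subunit of the helicase ring, read −2.34, −2.33, −2.46, −2.32 and −2.58 in control and −2.73, −2.70, −3.05, −2.86 and −2.89 with AP5. AP5 3 was the lowest, and the groups did not overlap. The difference was −0.44 (SE 0.08, adjusted p = 0.00136).

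The other 5 Mcm subunits fell by 0.28 (Mcm4) to 0.46 (Mcm6) on the log2 scale, each with all AP5 arrays below all control arrays. Gmnn, the inhibitor of Cdt1, fell as well, by 0.43 (SE 0.11, adjusted p = 0.0185), although AP5 5 at −2.93 lay above control 3 at −3.02. Cdc6, the partner of Cdt1 in loading, was the exception by the probe read, at −0.19 (SE 0.13, adjusted p = 0.507). Its other kept probe was lower by more, at −0.47, so the exception depends on the probe.

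Of the genes of nucleotide supply and DNA synthesis, 4 of 5 fell (median −0.34). Tk1, the thymidine kinase of S phase cells, read −2.80, −2.66, −2.91, −2.82 and −2.91 in control and −3.14, −3.05, −3.23, −3.21 and −3.15 with AP5. All 5 AP5 arrays were the lower ones, and the difference was −0.34 (SE 0.07, limma adjusted p = 0.00449). Rrm1, the large subunit of ribonucleotide reductase, read −2.56, −2.43, −2.63, −2.59 and −2.57 in control against −2.85, −2.89, −2.83, −2.95 and −2.96 with AP5, again without overlap. It differed by −0.34 (SE 0.07, adjusted p = 0.00758), and Rrm2, its small subunit, by −0.49 (SE 0.14, adjusted p = 0.0326).

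Pcna, the sliding clamp of DNA polymerase, read −1.84, −1.58, −1.88, −1.92 and −1.80 in control and −2.09, −2.05, −2.12, −2.18 and −1.95 with AP5. The groups stood close, AP5 5 at −1.95 next to control 4 at −1.92, without overlapping. The difference was −0.27 (SE 0.07, adjusted p = 0.0247), the smallest among the called genes, and with slide as a fixed block it was −0.04. The call was lost without AP5 3, AP5 4, control 2 or control 5 (adjusted p up to 0.0733). Tyms, thymidylate synthase, did not pass, at −0.15 (adjusted p = 0.573), and its 3 probes disagreed in sign, from −0.17 to 0.15.

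**Figure D3:**
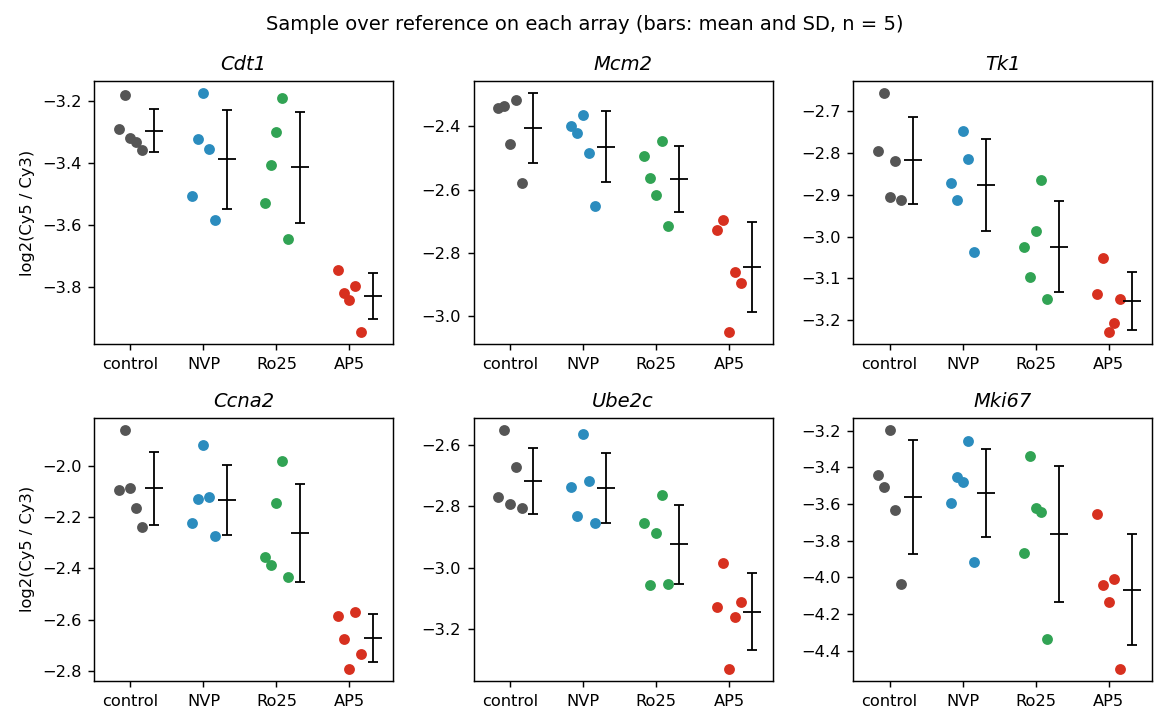
Each panel is 1 gene and each point 1 array, with the log2 ratio of sample over reference on the y axis and the 4 groups on the x axis; bars give the mean and SD (n = 5). The AP5 points of Cdt1, Mcm2, Tk1, Ccna2 and Ube2c lie below all control points, while the AP5 and control points of Mki67 overlap.

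Of the 4 G1/S regulators 1 fell. Ccnd1, cyclin D1, which links growth signals to the start of the cycle, read 0.40, 0.53, 0.30, 0.31 and 0.76 in control and −0.18, −0.20, −0.29, −0.12 and 0.43 with AP5. AP5 1 to 4 lay below every control array, and AP5 5, at 0.43, lay among them. The difference was −0.53 (SE 0.15, limma adjusted p = 0.0433), but with slide as a fixed block it turned to 0.16 (adjusted p = 0.830), and among the first-day arrays it was −0.42 (adjusted p = 0.210). It passed in 2 of the 10 fits that left out 1 array, without AP5 5 and without control 3, with adjusted p from 0.00869 to 0.117 over the 10. In every group array 5 had the highest Ccnd1 ratio: 0.76 in control, 0.43 with AP5, 0.88 with NVP and 0.79 with Ro25. The value with slide as a fixed block rests on AP5 1, AP5 5 and control 3.

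E2f1, a transcription factor of S phase genes, read −1.48, −1.37, −1.48, −1.32 and −1.15 in control and −1.49, −1.44, −1.73, −1.59 and −1.33 with AP5. The groups overlapped widely, and the difference of −0.16 (SE 0.09, adjusted p = 0.366) did not pass; with slide as a block it was 0.018. The E cyclins, which act after cyclin D1, did not pass either: Ccne1 differed by 0.04 (95% interval −0.14 to 0.22) and Ccne2 by −0.09 (−0.33 to 0.16).

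Among the S to M cyclins and their partners 3 of 6 fell (median −0.38). Ccna2, the cyclin of S phase and early mitosis, had the lowest p-value of the list and read −2.09, −1.86, −2.09, −2.16 and −2.24 in control against −2.59, −2.67, −2.79, −2.57 and −2.73 with AP5. The groups did not overlap, with control 5 at −2.24 and AP5 4 at −2.57 the nearest arrays, and the difference was −0.58 (SE 0.09, limma adjusted p = 0.000391). Cks2, a small protein bound to cyclin-dependent kinases, read −2.51, −2.11, −2.68, −2.58 and −2.58 in control and −3.04, −3.13, −2.99, −2.90 and −3.05 with AP5. Control 2 was high, at −2.11, and the other control arrays still lay above all AP5 arrays; the difference was −0.53 (SE 0.13, adjusted p = 0.0184), and 0.0566 without control 2.

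Ccnb1, the main mitotic cyclin, fell by 0.46 (SE 0.13, adjusted p = 0.0395). Its kinase Cdk1 did not pass, at −0.23 (SE 0.07, adjusted p = 0.0692), nor did Ccnb2, at −0.26 (adjusted p = 0.0823). Foxm1, a transcription factor of mitosis genes, missed the threshold at −0.29 (SE 0.09, adjusted p = 0.0532), although all its AP5 arrays lay below all control arrays.

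Both partners of the anaphase-promoting complex fell. Ube2c, the ubiquitin-conjugating enzyme that starts the chains on its targets, read −2.77, −2.55, −2.79, −2.67 and −2.81 in control and −3.13, −2.98, −3.33, −3.16 and −3.11 with AP5. Cdc20, the activator that recognises those targets, read −2.01, −1.61, −2.15, −2.10 and −2.30 in control and −2.68, −2.55, −2.55, −2.32 and −2.57 with AP5. Neither gene overlapped between the groups, though in Cdc20 control 5 at −2.30 and AP5 4 at −2.32 were close. The differences were −0.42 (SE 0.08, limma adjusted p = 0.00191) and −0.50 (SE 0.14, adjusted p = 0.0323). The Cdc20 call was kept in 3 of the 10 fits that left out 1 array, without AP5 4, control 3 or control 5, with adjusted p from 0.0229 to 0.0963 over the 10.

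Of the checkpoint and mitotic kinase genes 6 of 9 fell (median −0.40). Mad2l1, the checkpoint protein that holds Cdc20 back until chromosomes attach, read −2.50, −2.16, −2.52, −2.56 and −2.38 in control and −2.67, −2.88, −2.91, −2.90 and −2.78 with AP5. Plk1, the Polo kinase of mitotic entry, read −2.06, −1.92, −2.05, −2.13 and −2.27 in control and −2.39, −2.42, −2.62, −2.45 and −2.54 with AP5. In neither gene did the groups overlap, and the differences were −0.40 (SE 0.09, limma adjusted p = 0.00708) and −0.40 (SE 0.09, adjusted p = 0.00826).

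Aurkb, the kinase that corrects chromosome attachment, had the largest fall of the 47 genes, 0.62 on the log2 scale (SE 0.14, adjusted p = 0.0086, 1.53-fold). Its partner Birc5 (survivin) fell by 0.53, Bub1, a checkpoint kinase, by 0.55 and Melk, a kinase of dividing cells, by 0.43. Aurka, which acts at the spindle poles, Chek1, the kinase of the DNA damage checkpoint, and Bub1b did not pass, at −0.32, −0.28 and −0.17.

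The genes of chromosomes, spindle and cytokinesis fell in 4 of 12 cases (median −0.36). Tpx2, a spindle assembly factor, read −3.09, −2.83, −3.08, −3.15 and −3.08 in control and −3.33, −3.41, −3.35, −3.49 and −3.39 with AP5. Cenpe, a kinetochore motor, read −2.07, −1.97, −2.19, −2.18 and −2.41 in control and −2.50, −2.75, −2.77, −2.57 and −2.83 with AP5. Both were lower on every AP5 array than on any control array, by −0.35 (SE 0.08, limma adjusted p = 0.011) and −0.52 (SE 0.12, adjusted p = 0.0131). Of the 3 probes of Cenpe 2 were lower with AP5, and their differences ran from −0.52 to 0.06. The motor gene Kif20a and the spindle gene Nusap1 also fell, by 0.49 and 0.41. The second probe of Kif20a gave −0.47, but that of Nusap1 gave only −0.07.

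Mki67, the gene of the Ki-67 protein by which dividing cells are stained, did not pass in this fit. It read −3.44, −3.51, −3.19, −3.63 and −4.04 in control and −3.65, −4.04, −4.14, −4.01 and −4.50 with AP5. AP5 1 lay among the control arrays and control 5 among the AP5 arrays, so the groups overlapped. The difference was −0.50 (SE 0.18, limma adjusted p = 0.122), as large as that of Cdc20 but with a wider spread. Array 5 was the lowest in each of the 4 groups, and the difference was −1.45 (adjusted p = 0.146) with slide as a fixed block. That value rests on AP5 1, AP5 5 and control 3.

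Top2a, the topoisomerase that untangles chromosomes, read −3.16, −3.07, −3.03, −3.10 and −3.41 in control and −3.20, −3.37, −3.49, −3.47 and −3.71 with AP5. Control 5 lay among the AP5 arrays and AP5 1 among the controls, and the difference of −0.29 (SE 0.12, adjusted p = 0.184) did not pass. The histone variant gene Cenpa varied most within control, from −2.43 to −1.46, and did not pass, at −0.38 (SE 0.19, adjusted p = 0.324). The midzone gene Prc1 had no overlap between groups and did not pass, at −0.41 (adjusted p = 0.109). Kif11, Kif23 and Racgap1 did not pass, with differences from −0.34 to −0.20, nor did Hmmr, for which no difference is given.

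Most genes with several probes gave the same sign, though the sizes could differ, as for Cdc6 and Nusap1. Of 75 probes for the 47 genes 68 were bright enough to keep, and 64 of these were lower with AP5. In 14 of the 18 genes with at least 2 kept probes all of them were lower; the exceptions were Cenpe, Tyms, Ccne1 and Kif11.

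Other genes of the cycle were read from 4 further lists. In these lists too, the calls are to be read against the 3.59% of all genes called lower, or 2.38% among the first-day arrays. With slide as a fixed block 0 genes of the 4 lists passed (0.181% of all genes were lower). Of 31 other replication genes 10 fell with AP5, 0 rose and the median was −0.22, and 4 fell among the first-day arrays. The difference was below 0 for 30 of them, against 53.5% of all genes. With slide as a block 21 were below 0, and the median was −0.14, against −0.05 over all genes. The lowest p-values were those of the chromatin assembly subunit Chaf1b (−0.65, limma adjusted p = 0.000508), the DNA ligase Lig1 (−0.46, adjusted p = 0.00556) and the clamp loader subunit Rfc4 (−0.36, adjusted p = 0.0143). Of 50 other mitosis genes 21 fell and 0 rose (median −0.31), and 11 fell among the first-day arrays. The lowest p-values in that list belonged to Incenp (−0.51, adjusted p = 0.000622), the scaffold of the Aurora B complex, to the chromosome motor gene Kif22 (−0.57, adjusted p = 0.000751) and to the centromere gene Cenpk (−0.59, adjusted p = 0.00127). Of 13 other G1 regulators 1 fell, E2f2 (−0.49, adjusted p = 0.0159). Of 17 inhibitors of the cycle 1 fell, Btg2 (−0.28, adjusted p = 0.0047), 0 rose, and the median was 0.06.

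Marker lists of the cell types the culture could hold were read beside these genes. Of 15 astrocyte markers 0 passed in either direction (median 0.05), and 3 were below 0. Among the first-day arrays, which leave out AP5 1 and AP5 3, the median was 0.26 with 1 below 0. The mean of the list, relative to control, was −0.80 on AP5 1 and 0.10 to 0.50 on the other AP5 arrays, against −0.38 to 0.18 in control. Of 7 markers of oligodendrocyte precursors 0 passed (median −0.18), but 6 were below 0, and 5 among the first-day arrays (median −0.19). The means of that list were −0.65 to 0.13 on AP5 arrays and −0.45 to 0.29 in control. Of 10 measured microglia markers, of 14 listed, 8 were below 0. Fcer1g fell and Csf1r rose, and the means overlapped, −0.13 to 0.01 against −0.11 to 0.12. Of 8 measured markers of radial glia and neural progenitors, 6 of oligodendrocytes and 10 of neurons 0 passed, with 6, 2 and 5 below 0. Of 7 fibroblast markers Col1a2 fell and of 5 endothelial markers Kdr rose. Both rises turned with slide as a fixed block, Csf1r from 0.46 to −0.05 and Kdr from 0.73 to −0.34. These block values rest on AP5 1, AP5 5 and control 3. AP5 1 stood apart, with the neuron markers at −0.62 and the radial glia markers at −0.54. Without AP5 1, 27 of the 47 cell cycle genes passed, against 3.04% of all genes called lower. The part of cell composition in the lower cell cycle ratios was not tested.

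**Figure D4:**
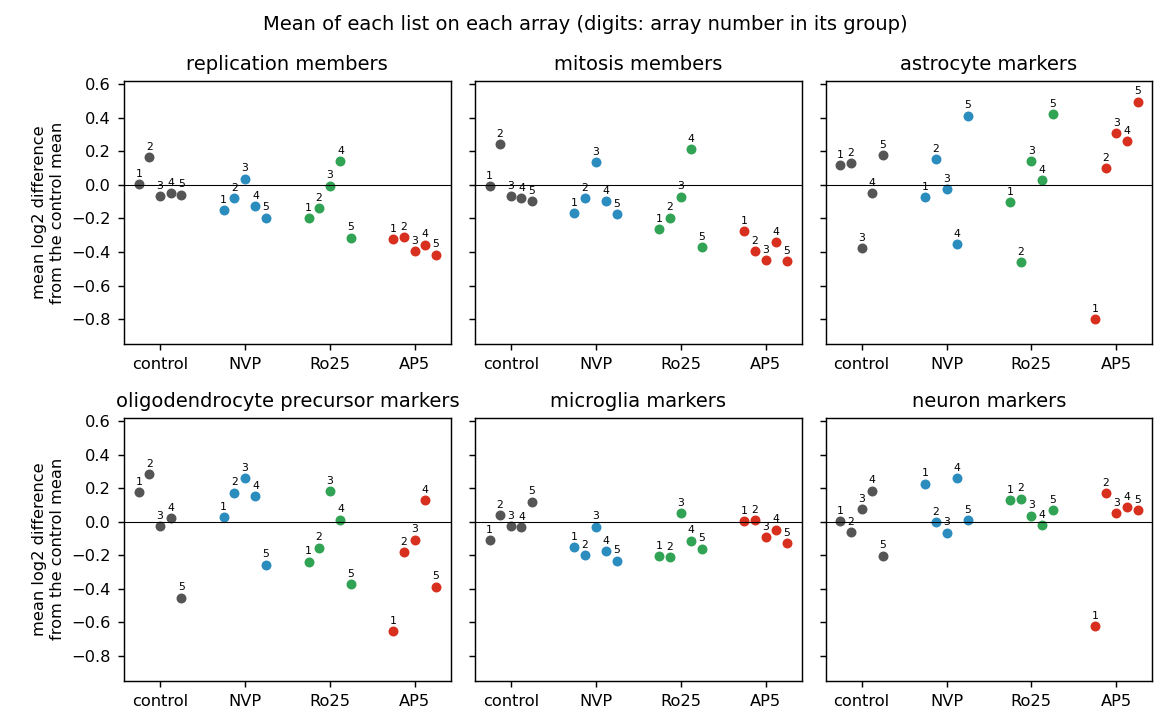
Each point is the mean of a list on 1 array, minus the mean of the control arrays, in log2 units; digits are the array numbers. The AP5 points of the replication and mitosis genes lie below all control points. In the marker panels AP5 points lie both within and outside the range of the control points, and AP5 1 is lowest in 3 of the 4.

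The comparisons with NVP and Ro25 share their 5 control arrays with that of AP5. With NVP 0 of 47 genes passed in either direction, and so did 0 of 19350 genes (0%), of which 5.88% had an unadjusted p under 0.05. At an unadjusted p under 0.05, 1 of the 47 was lower, against 3.4% of all genes. The median difference was −0.08, against −0.01 over all genes, and 40 of 47 were below 0, against 54.6%. Rrm2 was the gene of lowest p: its NVP arrays read −2.42, −2.41, −2.09, −2.36 and −2.35 against −1.90, −1.79, −1.78, −2.05 and −2.04 in control. All 5 NVP arrays lay below all control arrays, which held for 1.23% of all genes, and the difference of −0.41 (SE 0.14, limma adjusted p = 0.643) did not pass. The next were the checkpoint gene Mad2l1, at −2.65, −2.55, −2.49, −2.67 and −2.57, and the cytokinesis gene Racgap1, at −2.36, −2.45, −2.25, −2.52 and −2.42, which read −2.34, −2.16, −2.41, −1.91 and −2.21 in control. Both overlapped with control, and their differences were −0.16 (SE 0.09, adjusted p = 0.918) and −0.19 (SE 0.11, adjusted p = 0.920). Ccna2 differed by −0.05 (95% interval −0.24 to 0.14) and Cdt1 by −0.09 (−0.27 to 0.08).

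With Ro25 0 of 47 genes passed, against 0.0155% of all genes, which is 3 genes, all lower. At an unadjusted p under 0.05, 3 of the 47 were lower, against 2.96% of all genes. The median was −0.13, against 0.0015 over all genes, and 44 of 47 were below 0, against 49.3%. Tk1 read −3.02, −3.10, −2.99, −2.86 and −3.15, Ube2c read −2.86, −3.06, −2.89, −2.76 and −3.05 and Tpx2 read −3.27, −3.26, −3.35, −3.03 and −3.35. These were the 3 lowest p-values, and in each gene only Ro25 4 lay among the control arrays; none passed. The differences were −0.21 (SE 0.07, limma adjusted p = 0.815) for Tk1, −0.20 (SE 0.08, adjusted p = 0.939) for Ube2c and −0.20 (SE 0.08, adjusted p = 0.992) for Tpx2. Without Ro25 4 the median over the list was −0.20, and without Ro25 5 it was −0.08, with 0 genes called in both cases.

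**Figure D5:**
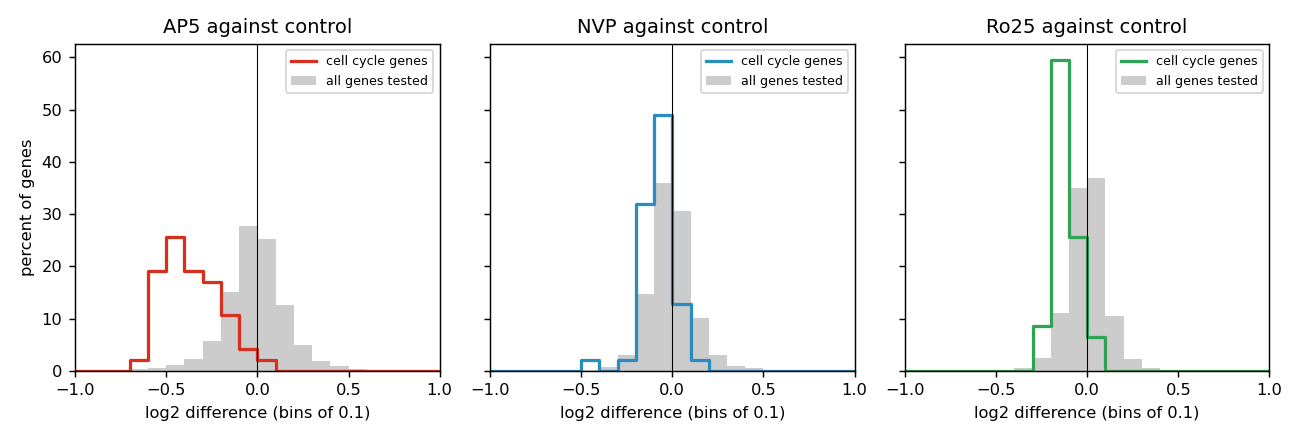
Each panel is 1 drug against control. Grey bars give the percent of all 19350 genes, and the coloured line the percent of the 47 genes, in bins of 0.1 log2 units. The coloured line sits left of the grey bars with AP5, where the medians were −0.38 and −0.01, and closer to them with NVP (−0.08) and Ro25 (−0.13).

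The drugs were also compared with one another, at the doses above, which differ. These comparisons share arrays with those against control. AP5 against NVP gave 16 of 47 genes lower and 0 higher, against 3.09% of all genes called lower and 2.69% higher, with a median of −0.28. Ccna2 had the lowest p-value here too, at −0.54 (SE 0.09, limma adjusted p = 0.00101), and Cdt1, Ube2c, Mcm2 and Plk1 followed, at −0.44, −0.40, −0.38 and −0.40. Rrm2 did not differ past the threshold between AP5 and NVP (−0.08, 95% interval −0.36 to 0.20). The count was 6 among the first-day arrays (1.53% of all genes) and 0 with slide as a fixed block (0.382%). With median centring it was 0 (0.434%) with a median of −0.13. It was 7 without AP5 3 (2.28% of all genes) or NVP 3 (2.29%), 8 without NVP 4 (2.11%) and 9 without NVP 2 (2.10%). On slide 2, which held AP5 5 and 3 NVP arrays, the median was −0.40 and 43 of 47 were lower with AP5, against 48.0% of all genes.

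AP5 against Ro25 gave 4 genes lower and 0 higher, against 1.97% of all genes lower and 1.13% higher, with a median of −0.25. They were Cdt1 (−0.42, SE 0.08, limma adjusted p = 0.00661), Ccna2 (−0.41, SE 0.09, adjusted p = 0.0136), Mcm6 (−0.39, SE 0.09, adjusted p = 0.024) and Mad2l1 (−0.35, SE 0.09, adjusted p = 0.0313). In each of the 4 all AP5 arrays lay below all Ro25 arrays, which held for 2.6% of all genes. The count was 0 among the first-day arrays (0.915% of all genes), with slide as a fixed block (0.894%) or with only these 2 groups fitted (0.796%). With median centring it was 0 (0.377%) with a median of −0.14. It was 2 without AP5 3 (1.66% of all genes), Ro25 3 (1.62%) or Ro25 4 (1.75%), and 9 without Ro25 5 (1.90%). On slide 6, which held 1 array of each, AP5 1 and Ro25 2, the median was −0.07 with 36 of 47 lower, against −0.05 and 58.9% over all genes. The medians lay close there, while a larger share of the list was lower. AP5 1 is the array that stood apart in the marker lists.

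Between NVP and Ro25 0 of 47 genes passed, nor did any of the 19350 genes (0%), of which 5.91% had an unadjusted p under 0.05, and the median was 0.04. At an unadjusted p under 0.05 Rrm2 was lower with NVP (3.12% of all genes were) and 3 genes were higher (2.8%): Ube2c by 0.18, Tpx2 by 0.21 and Tk1 by 0.15. Their adjusted limma p-values were 0.811 to 0.841. On slide 4, where 3 Ro25 arrays stood with control 3, the Ro25 median was −0.03 with 28 of 47 lower, against 49.0% of all genes, and on slide 3, with 2 NVP arrays and 1 of Ro25, the NVP median was −0.10 with 39 of 47 lower, against 52.5%.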

How the data were processed

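Gene expression was measured on 20 Agilent arrays of 2 colours. The deposited intensities are spot brightness as written by the scanner software: the file headers give Feature Extraction 10.7.3.1 and the submitters' processing notes give 11.0. The deposited log10 ratios are the scanner software's own ratio of red over green, per the file headers. The log2 values of the series table were deposited by the authors, with normalization and centring unknown, and cover 41 of the 47 genes by the probe read here; both served as alternatives.

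Here, intensities were background corrected (normexp, offset 50) and loess normalised within each array. Probes whose red signal the scanner software called well above background on 5 or more arrays were kept, and the brightest kept probe gave the gene. Probes were named through RefSeq (GRCm38.p6). The limma model (limma 3.58.1, R 4.3.3) held 4 group means over 20 arrays, with Benjamini-Hochberg adjustment over 19350 genes and a threshold of 0.05. Of all spots 0.282% were outliers left out and 0 were saturated. Signal precision is limited by the number of arrays, 5 per group. Arrays lay on 7 slides with 3 scan days, 17 on the first. The members and lists were chosen with earlier results of these data known. Described in full were, for AP5, the 2 genes of lowest p in each role with Mki67, Top2a, Ccnd1 and Pcna, and for the other drugs the 3 of lowest p. Alternatives varied background correction, scaling, filter, probe, blocks and arrays.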

Additional observations from a re-analysis of the deposited data

Results flagged for a closer look

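Within the 5 arrays of a group, 15 of the 188 combinations of gene and group held an array far from the other 4. The gap to the nearest was then above 0.71 of the whole range (Dixon's 95% limit). Chance alone gives about 1 in 20, or 9.4. Genes on the same array move together and are not separate trials, so 15 against 9.4 is not a test. In 14 the array was high and in 1 it was low. NVP 3 was the distant array in 5 genes, all high: Ccnb2 (−2.56), Aurka (−2.30), Bub1 (−2.91), Rrm2 (−2.09) and Cks2 (−2.46), as log2 ratios over the reference. Control 2 was high in Aurka (−2.16), Birc5 (−2.04) and Tpx2 (−2.83). Ro25 4 was high in Ccnb2 (−2.58) and Tpx2 (−3.03). Ccnd1 was high on array 5 with AP5 (0.43) and NVP (0.88). Kif11 was high on AP5 1 (−1.75) and Kif20a on AP5 4 (−2.45), and Racgap1 was low on AP5 3 (−2.94).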

How the results depend on the processing

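Across the 15 settings that kept all arrays or restricted them by design, no gene of the list was called higher with AP5 than with control. With slide as a fixed block and with median centring none was called in either direction. Over these settings and the fits without 1 array 42 to 46 of the differences were below 0. With slide as a fixed block the counts of called genes were 0 for AP5 against control, 0 against NVP and 0 against Ro25, the median for AP5 against control was −0.30, and 4 genes of the list changed sign: Ccnd1 (0.16), E2f1 (0.018), Ccnb2 (0.03) and Racgap1 (0.0025). On the first scan day the counts were 17, 6 and 0. With median centring they were 0, 0 and 0, with medians of −0.27, −0.13 and −0.14. With the scanner log ratio the medians were −0.44, −0.33 and −0.31. For AP5 against Ro25 the count was 0 with only these 2 groups fitted (0.796% of all genes were lower) and 8 with the scanner log ratio (1.94%). It was 7 with the series table (2.31%) and 7 with quantile scaling of both channels (2.43%), a setting chosen after seeing the data. The cause of these changes was not tested. Leaving out 1 array gave 17 to 27 called genes against control (medians −0.40 to −0.33), 7 to 15 against NVP (medians −0.31 to −0.25) and 2 to 9 against Ro25 (medians −0.29 to −0.18). In these fits 2.49% to 3.44%, 2.10% to 3.87% and 1.49% to 1.90% of all genes were called lower. The replicate numbers did not pair the arrays as a whole: 11 of 30 same-number pairs correlated above 0.1 and 4 of 20 arrays correlated best with their own number. The arrays numbered 5 did deviate together, with correlations of 0.57 to 0.76 across groups and a mean of 0.66. For the other numbers the means ran from −0.13 to 0.04 and single pairs from −0.45 to 0.51. With the replicate number as a block 29 genes were called for AP5 against control, against 3.76% of all genes called lower. Mki67 (adjusted p = 0.0146) and Top2a (adjusted p = 0.0308, limma), which had missed the threshold without that block, passed. Genes not well above background, as Hmmr, have no measured level here.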
